A study of Mus musculus with 6 samples.

Results

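The genes described here make, break down and relay cyclic AMP (cAMP): the adenylyl cyclases, the cyclic nucleotide phosphodiesterases, the subunits of protein kinase A (PKA) and the A-kinase anchoring proteins. They were chosen by gene symbol (Adcy followed by a number, Pde followed by a digit, and symbols that start with Prkac, Prkar or Akap). The rule was set with earlier results of these data known, and 56 of the 19937 genes tested on the arrays met it. RNA came from primary neurospheres, floating colonies grown from hippocampal cells of adult male C57BL/6J mice aged 8 to 12 weeks, in medium with EGF and bFGF. Norepinephrine at 10 µM (N) was present in 3 cultures and potassium chloride at 15 mM (K) in 3 others, and the neurospheres, which the labels call small, were collected on day 14. Each culture, labelled a biological replicate, was measured on 1 Affymetrix mouse gene array, so n = 3 arrays per group throughout. No untreated neurospheres are among the arrays, so every difference is N against K and cannot show which agent moved a gene, and whether a culture came from 1 mouse or several is not given in the sources used here.

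Norepinephrine acts on cells through G protein-coupled receptors. Receptors that couple to the stimulatory G protein switch on adenylyl cyclases, which make cAMP from ATP, and receptors that couple to inhibitory G proteins hold the cyclases back. Potassium chloride depolarises cells, and calcium that enters through voltage-gated channels can switch some cyclases and phosphodiesterases on or off through calmodulin. cAMP binds the regulatory subunits of PKA and frees its catalytic subunits, anchoring proteins hold the kinase near its targets, and phosphodiesterases end the signal. In precursor cells the pathway is known for its part in proliferation and neuronal differentiation through the transcription factor CREB.

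None of the 56 genes passed at an adjusted p under 0.05 from limma (lmFit and eBayes, Benjamini-Hochberg over all genes tested), where 31 of all genes did (0.155%). At an unadjusted P under 0.05, 10 of the 56 passed, or 17.9%, beside 8.54% of all genes. Of these, 9 had the higher mean with N (16.1% of the 56, beside 4.64% of all genes) and 1 with K (1.79%, beside 3.89%). Those higher with N were the PKA subunit genes Prkacb, Prkar2b and Prkar1a, the phosphodiesterase genes Pde2a, Pde3a, Pde4b, Pde7b and Pde11a, and the anchor gene Akap7, and the anchor gene Akap13 was the 1 higher with K. The adjusted p of these 10 ran from 0.0801 for Pde2a to 0.577 for Pde11a. The N and K arrays did not overlap for 13 of the 56 genes (23.2%, beside 13.3% of all genes), 12 with N above (beside 5.78% of all genes) and 1 with K above (beside 7.55%). The median log2FC (N minus K) was 0.07 over the 56 genes and -0.03 over all genes, and 34 of the 56, or 60.7%, had a positive log2FC, beside 43% of all genes. In bulk RNA, fewer cells of a type and less RNA per cell cannot be told apart.

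The count of 9 varied with the arrays used. When K replicate 1 was left out, 5 of the 9 passed at an unadjusted P under 0.05, and the 4 that did not were Pde3a, Pde4b, Pde7b and Pde11a. K replicate 1 was the lowest K array for all 4 of them. The count was 6 without N replicate 1 and between 7 and 10 with any other array left out. K replicate 3 had the highest array median (6.40, beside 6.30 to 6.37 on the other arrays), K replicates 1 and 3 had narrower spans of values than the rest (4.89 and 4.85 between the 10th and 90th percentiles, beside 5.07 to 5.14), and all K arrays but K replicate 3 correlated more with the N arrays than with the other K arrays.

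Intensity differed between the 56 genes and the rest. Of the 56, 38 (67.9%) lay above the median of all clusters, 6.34, beside 56.5% of all genes, and among genes above that median 7.04% were higher with N at an unadjusted P under 0.05. Of the 38 members there, 8 were (21.1%), and 1 was higher with K (2.63%, beside 4.12%). Their median log2FC was 0.13, beside 0.01 for all genes above the median, and 11 of the 38 (28.9%, beside 15.1%) had groups that did not overlap. Of the 18 members below it 1 passed, Pde11a, higher with N (5.56%, beside 4.64% of all genes at any intensity). The share among all genes below the median was not counted.

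**Figure D1:**
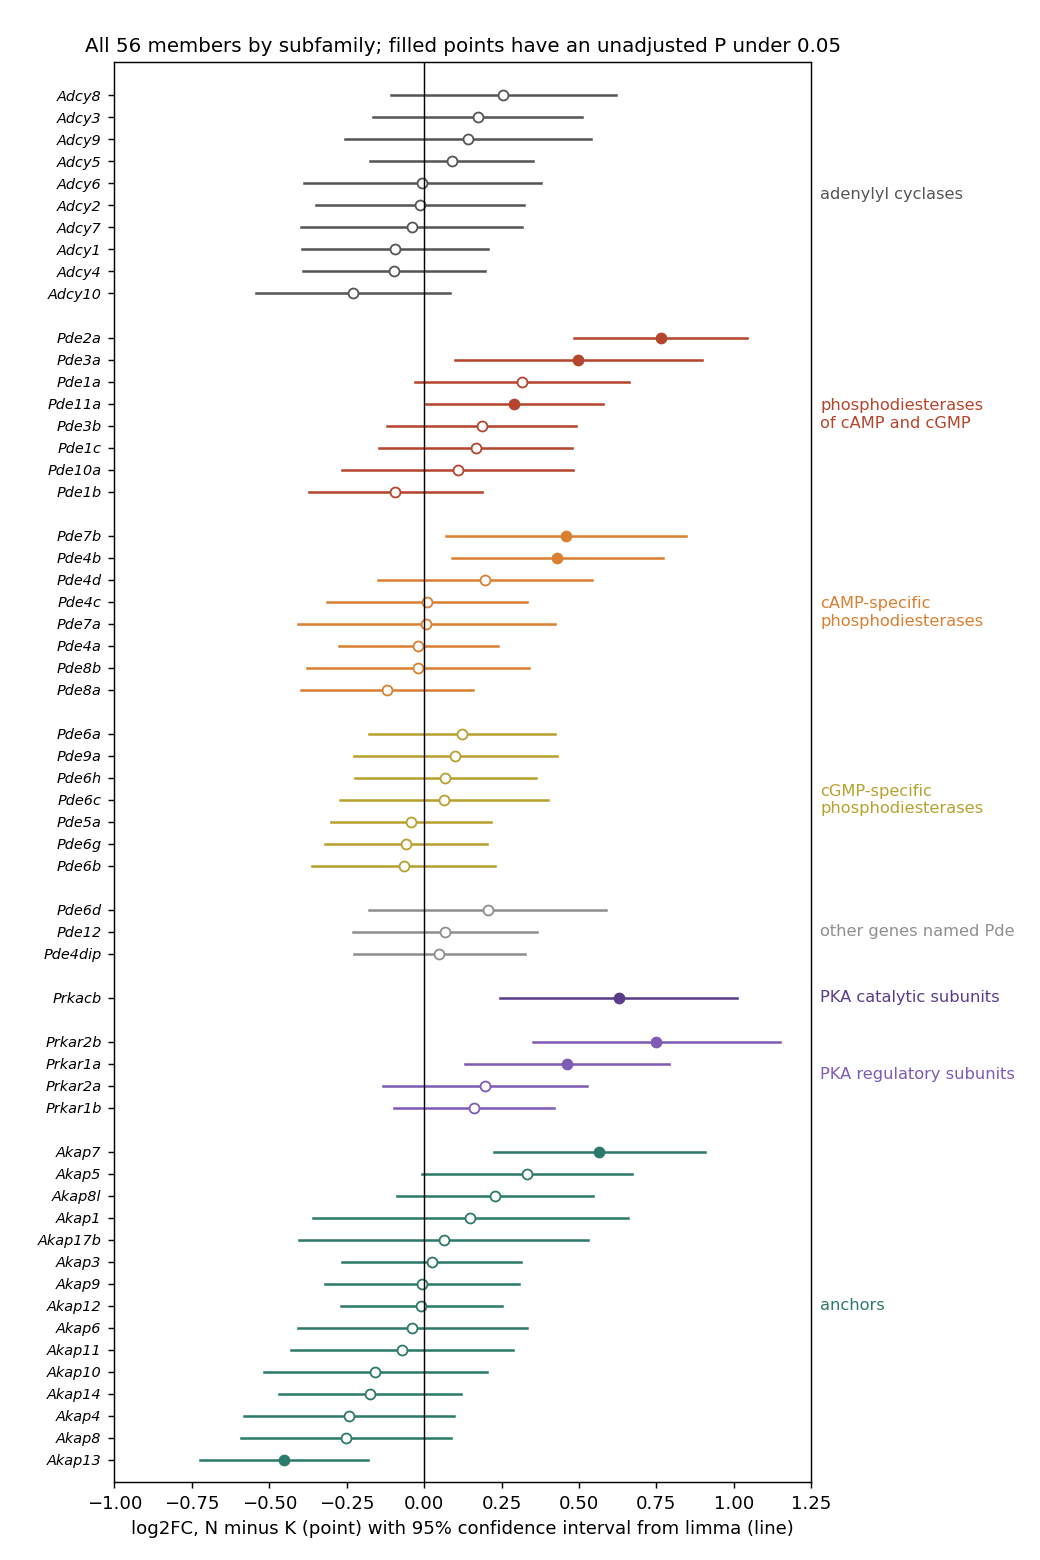
The horizontal axis gives the log2FC (N minus K) of each of the 56 genes, grouped by subfamily, with the 95% confidence interval from limma as a line and 3 arrays per group. Filled points mark the 10 genes with an unadjusted P under 0.05, of which 9 lie to the right of 0, and all 10 cyclase intervals include 0.

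With the values as deposited, no difference between N and K was detected among the adenylyl cyclases, which make cAMP. None of the 10 reached an unadjusted P under 0.05, none had groups that did not overlap, and their median log2FC was -0.01. Adcy8, a cyclase that calcium and calmodulin stimulate, had the highest log2FC, 0.26 (95% confidence interval -0.11 to 0.62). Its log2 values were 5.53, 5.53 and 5.82 on the N arrays and 5.56, 5.09 and 5.46 on the K arrays. K replicate 1 thus lay above N replicates 1 and 2. After quantile or cyclic loess normalization all N arrays of Adcy8 lay above all K arrays. The log2FC was then 0.30 and 0.32 (unadjusted P = 0.0668 and 0.0490, adjusted p = 0.615 and 0.566 from limma). The other cyclases of that calcium-stimulated class, Adcy1 and Adcy3, had log2FC of -0.09 and 0.17. Adcy1 had the brightest cluster of the family, with 6.85, 7.05 and 7.14 on the N arrays and 6.97, 7.14 and 7.21 on the K arrays.

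Adcy10, the soluble cyclase that bicarbonate activates, had the lowest log2FC of the family, -0.23 (95% confidence interval -0.54 to 0.08), and was dim. Its values were 4.20, 4.02 and 4.10 with N and 4.26, 4.19 and 4.56 with K, so K replicate 2 lay below N replicate 1. After each array was centred on its own median, all K arrays of Adcy10 lay above all N arrays. The log2FC was then -0.20 (unadjusted P = 0.143, adjusted p = 0.735 from limma). Adcy2, Adcy4 and Adcy7, which G protein beta and gamma subunits can stimulate, had log2FC of -0.01, -0.10 and -0.04. Adcy5 and Adcy6, which calcium inhibits, had 0.09 and -0.01, and Adcy9 had 0.14. The interval of every cyclase included 0. Taken over the family the intervals reached from -0.54 for Adcy10 to 0.62 for Adcy8, so these arrays leave room for differences of that size.

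The phosphodiesterases, which hydrolyse cAMP, cGMP or both, numbered 23 and 16 of them had a positive log2FC. Of the 23, 5 reached an unadjusted P under 0.05 (21.7%, beside 8.54% of all genes), all higher with N (beside 4.64%), and the median log2FC was 0.10. Among the 8 enzymes that act on both cAMP and cGMP the median was 0.24, 7 had a positive log2FC, 3 reached an unadjusted P under 0.05 and 4 had all N arrays above all K arrays (beside 5.78% of all genes). Among the 8 enzymes specific to cAMP the median was 0.01, with 2 at an unadjusted P under 0.05, and among the 7 genes of the cGMP-specific class the median was 0.06, with 0 of 7 at an unadjusted P under 0.05. The gap between the first 2 medians was not seen among clusters above the median intensity, where the medians were 0.18 for the enzymes of both nucleotides and 0.20 for the cAMP-specific ones. Whether the classes differ was not tested.

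Pde2a encodes the phosphodiesterase that cGMP stimulates to hydrolyse cAMP, a link by which cGMP lowers cAMP. Its log2 values were 7.39, 7.53 and 7.36 on the N arrays and 6.61, 6.79 and 6.59 on the K arrays. The lowest N array lay 0.57 above the highest K array. The log2FC was 0.76 (standard error 0.12, 95% confidence interval 0.49 to 1.04), a 1.70-fold higher mean with N, with the lowest P of the 56 genes (unadjusted P = 1.81e-04, adjusted p = 0.0801 from limma). With each array left out in turn the log2FC stayed between 0.71 and 0.83. Over all alternative settings the adjusted p ran from 0.0664 without K replicate 2 to 0.463 in an ordinary linear model, and none was under 0.05.

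Pde3a encodes a phosphodiesterase that cGMP inhibits, the opposite arrangement to that of Pde2a. Its values were 8.53, 8.36 and 8.75 with N and 7.71, 8.18 and 8.25 with K. K replicate 1 stood apart from the other K arrays, and the groups were separated by 0.11. The log2FC was 0.50 (standard error 0.18, adjusted p = 0.484 from limma) with all arrays and 0.33 without K replicate 1. Its paralog Pde3b, known for its part in insulin signalling in fat cells, had 0.19 (standard error 0.13) with overlapping groups.

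Pde11a was dim, with values of 6.04, 6.12 and 5.97 with N and 5.58, 5.82 and 5.85 with K. The log2FC was 0.29 (standard error 0.13, adjusted p = 0.577 from limma), and 0.21 without K replicate 1, whose value was the lowest. The calcium- and calmodulin-stimulated class, Pde1a, Pde1b and Pde1c, had log2FC of 0.32, -0.09 and 0.17. Of the 3, Pde1a had all N arrays above all K arrays (N 5.20, 5.12 and 4.89, K 4.89, 4.51 and 4.87), though by only 0.0018 between N replicate 3 and K replicate 1 (unadjusted P = 0.0688). Pde1b, the lowest of the class, had 6.96, 6.92 and 6.85 with N and 7.14, 6.86 and 7.01 with K, which overlap. Pde10a, an enzyme known from striatal neurons, had the brightest cluster of the class, with 8.65, 8.64 and 8.73 with N and 8.28, 8.52 and 8.90 with K. K replicate 3 was its highest array and K replicate 1 its lowest, and the log2FC was 0.11 (standard error 0.16).

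Among the cAMP-specific enzymes, Pde4b and Pde7b were the genes at an unadjusted P under 0.05. Pde4b, whose transcription cAMP can induce in several cell types, had values of 8.13, 8.05 and 7.81 with N and 7.40, 7.50 and 7.80 with K. N replicate 3 and K replicate 3 differed by only 0.01, so the groups were barely separated. The log2FC was 0.43 (standard error 0.15, adjusted p = 0.473 from limma). After quantile or cyclic loess normalization its groups overlapped.

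Pde7b had values of 8.49, 8.03 and 8.20 with N and 7.50, 7.93 and 7.91 with K, again with K replicate 1 lowest. Its log2FC was 0.46 (standard error 0.17, adjusted p = 0.507 from limma), and 0.32 without K replicate 1. The paralog Pde7a had 0.01 (standard error 0.18). The log2 ratio of Pde7b to Pde7a within each array was 1.02, 0.66 and 1.13 with N and 0.56, 0.44 and 0.46 with K, so the ratio was higher on every N array. The ratio of Pde4b to Pde4d, and that of Pde3a to Pde3b, overlapped between the groups.

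Pde4d, with 0.20 (standard error 0.15), was covered by 3 clusters. The cluster used was the brightest, and the other clusters, with means of 4.82 and 4.71, had log2FC of -0.27 and -0.17. Pde4a and Pde4c had -0.02 and 0.01, and the Pde8 genes, whose enzymes bind cAMP with high affinity, had -0.12 for Pde8a and -0.02 for Pde8b. Pde8a, the lowest of the class, had 6.14, 6.11 and 6.15 with N and 6.35, 6.32 and 6.09 with K, where K replicate 3 lay below all N arrays.

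The cGMP-specific class holds the photoreceptor Pde6 genes, Pde5a of smooth muscle and Pde9a. Pde6a had the highest log2FC of the class, 0.12 (standard error 0.13), with 5.24, 5.32 and 5.13 with N and 5.11, 4.94 and 5.28 with K. Pde6b had the lowest, -0.07 (standard error 0.13), with 5.29, 5.34 and 5.26 with N and 5.30, 5.22 and 5.56 with K. In both, the groups overlapped. The catalytic Pde6c had 0.06, the inhibitory subunit genes Pde6g and Pde6h had -0.06 and 0.07, and Pde5a had -0.04. Pde9a, the only gene of the 7 above the median of all clusters, had 0.10 (standard error 0.14), with values of 7.35, 7.20 and 7.17 with N and 6.89, 7.31 and 7.22 with K. Pde6d, Pde12 and Pde4dip carry the Pde name but encode a carrier of prenylated proteins, a mitochondrial RNase and a centrosomal and Golgi scaffold. Their log2FC were 0.20, 0.07 and 0.05, with overlapping groups. Pde6d was the brightest, with 8.67, 8.85 and 8.86 with N and 8.24, 8.84 and 8.69 with K, and Pde4dip the dimmest, with 6.57, 6.62 and 6.47 with N and 6.64, 6.46 and 6.42 with K.

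The subunits of PKA all had higher means with N than with K. A single catalytic gene, Prkacb, and the regulatory genes Prkar1a, Prkar1b, Prkar2a and Prkar2b had a cluster of their own, while the cluster of Prkaca was shared with other symbols and was not used here. All 5 had a positive log2FC, from 0.16 to 0.75, with a median of 0.46. Of the 5, 3 were higher with N at an unadjusted P under 0.05 (beside 4.64% of all genes). All N arrays lay above all K arrays for 4 of the 5 (beside 5.78% of all genes). None passed over all genes tested, and the 5 genes were measured on the same arrays and are not independent replicates.

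Prkacb encodes the beta catalytic subunit, the form enriched in brain. Its values were 10.20, 10.04 and 10.16 with N and 9.63, 9.14 and 9.74 with K. The N arrays lay within 0.16 of each other while K replicate 2 was well below the other K arrays. The log2FC was 0.63 (standard error 0.17, adjusted p = 0.300 from limma), a 1.55-fold higher mean with N, and 0.45 without K replicate 2.

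Prkar2b encodes the type II beta regulatory subunit, the main one in neurons. Its values were 6.49, 6.65 and 7.10 with N and 5.83, 6.03 and 6.13 with K. N replicate 3 was highest, and the groups were separated by 0.36. The log2FC was 0.75 (standard error 0.17, adjusted p = 0.252 from limma), a 1.68-fold higher mean with N, and 0.58 without N replicate 3. The log2 ratio of Prkar2b to its widely expressed paralog Prkar2a within each array was -1.69, -1.43 and -1.34 with N and -2.20, -2.18 and -1.75 with K. Every N array thus had a higher ratio than every K array, the closest being N replicate 1 and K replicate 3. The ratio of Prkacb to Prkar2b overlapped between the groups, with a difference of -0.12. The 6 ratios within arrays (the Prkar1 pair among them) were chosen after the values of the genes were seen and carry no test.

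Prkar1a encodes the type I alpha regulatory subunit, which is widely expressed and keeps free catalytic subunits in check. Its values were 9.36, 9.36 and 9.14 with N and 8.98, 8.91 and 8.58 with K. The groups were separated by 0.17. The log2FC was 0.46 (standard error 0.15, adjusted p = 0.398 from limma) and 0.34 without K replicate 3, the lowest array. Prkar1b, its neuronal paralog, had values of 6.87, 6.83 and 6.89 with N and 6.80, 6.64 and 6.66 with K, which did not overlap, with a log2FC of 0.16 (standard error 0.11, unadjusted P = 0.189). Prkar2a had 0.20 (standard error 0.14), with values of 8.18, 8.08 and 8.44 with N and 8.02, 8.21 and 7.88 with K. K replicate 2 lay above N replicates 1 and 2.

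**Figure D2:**
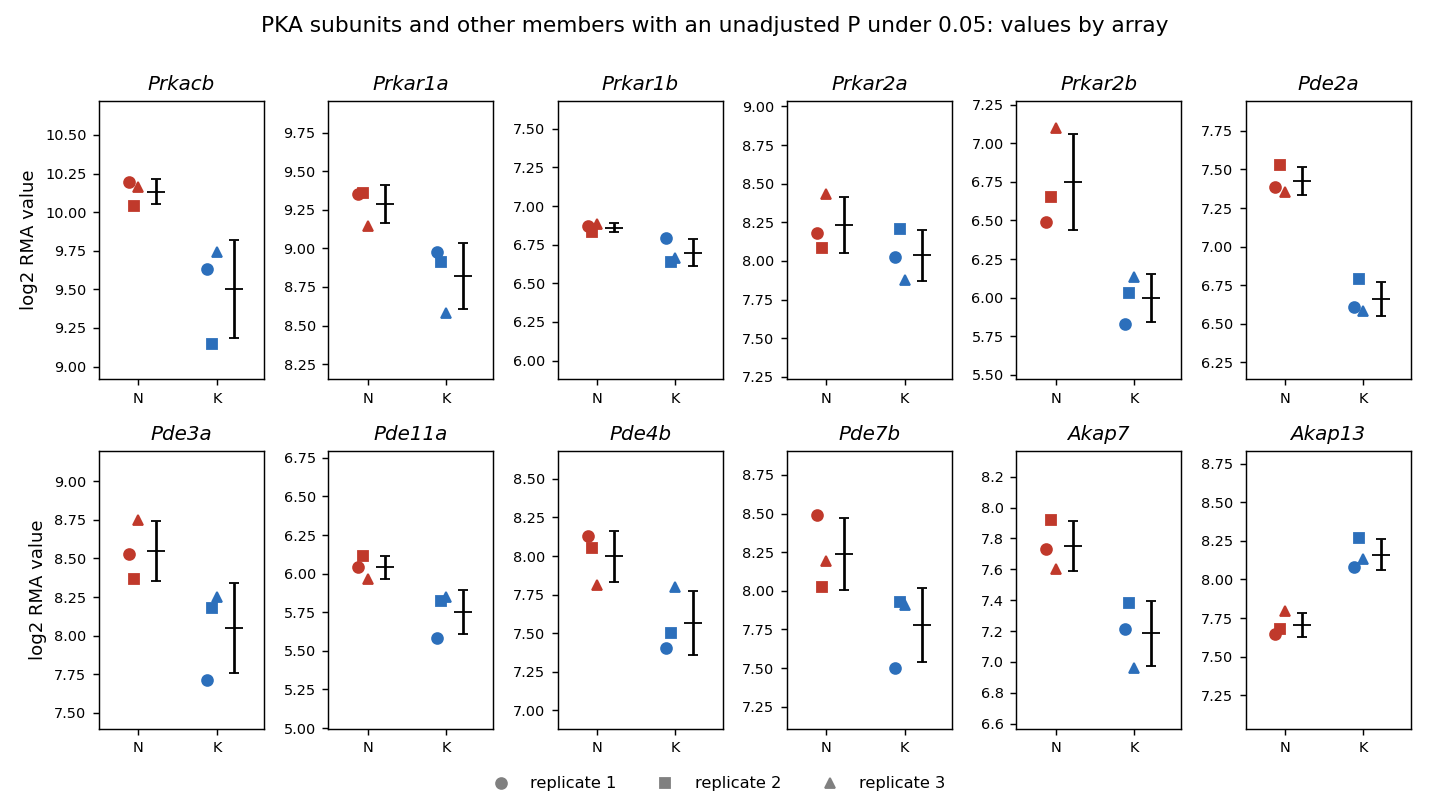
Log2 RMA values (vertical axes, each spanning the same range around the gene's mean) of the 5 PKA subunit genes and the 7 other genes with an unadjusted P under 0.05, by group, with 1 point per array, marker shape for the replicate number and a bar for mean ± SD (n = 3 arrays). Prkar2a is the only gene drawn whose groups overlap, and Pde2a has the widest gap between the groups, 0.57.

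The start regions of these genes were read for the cAMP response element to which CREB family proteins bind. RefSeq promoters of GRCm38.p6, 250 bases before to 50 after a start site, were found for 46 of the 56 genes by gene ID, 88 windows in all. The full palindrome TGACGTCA stood in 2 of the 88 windows (2.27%, beside 1.79% of all 32851 windows of that length), and TGACG on either strand, which the palindrome also contains, in 17 (19.3%, beside 20.8%). Counted by gene, which depends on how many windows a gene has, TGACG stood in at least 1 window of 15 of the 46 members (32.6%, beside 23% of all 27025 genes) and of 4 of the 9 with an unadjusted P under 0.05. Both windows with the palindrome belong to Prkar1a and overlap, so they hold 1 site. The windows below come from the genes with an unadjusted P under 0.05 that hold a match, 1 window per gene (for Prkar1a the window with the palindrome before the start site), and are shown so that the palindrome of Prkar1a can be read beside the shorter matches in Prkacb, Pde4b and Pde2a. Those genes hold the 5 letters only, which stand in about as large a share of all windows as of the members' windows. Capitals mark TGACGTCA, TGACG or its reverse complement CGTCA, each sequence is written 5′ to 3′ on the gene's strand, and position 1 is the start site.
Prkar1a promoter, chr11:109650699-109650998, plus strand: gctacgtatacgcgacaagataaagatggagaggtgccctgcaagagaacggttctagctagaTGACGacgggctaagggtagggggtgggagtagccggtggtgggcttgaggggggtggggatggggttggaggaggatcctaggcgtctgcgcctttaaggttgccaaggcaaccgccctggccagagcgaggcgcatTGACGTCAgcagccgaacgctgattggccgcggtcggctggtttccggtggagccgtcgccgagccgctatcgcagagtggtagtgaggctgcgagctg
Prkacb promoter, chr3:146812897-146813196, minus strand: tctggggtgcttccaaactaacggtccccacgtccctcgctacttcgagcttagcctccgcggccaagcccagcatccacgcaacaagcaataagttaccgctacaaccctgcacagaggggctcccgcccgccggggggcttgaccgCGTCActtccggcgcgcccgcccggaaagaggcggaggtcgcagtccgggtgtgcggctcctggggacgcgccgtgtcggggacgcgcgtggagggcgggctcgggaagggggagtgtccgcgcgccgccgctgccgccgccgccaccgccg
Pde4b promoter, chr4:102421305-102421604, plus strand: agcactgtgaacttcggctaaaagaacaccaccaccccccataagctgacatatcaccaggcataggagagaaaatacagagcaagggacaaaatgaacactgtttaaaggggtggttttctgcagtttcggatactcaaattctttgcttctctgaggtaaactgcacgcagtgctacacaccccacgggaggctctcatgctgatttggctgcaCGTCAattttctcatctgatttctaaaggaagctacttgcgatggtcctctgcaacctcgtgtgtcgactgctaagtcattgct
Pde2a promoter, chr7:101450270-101450569, plus strand: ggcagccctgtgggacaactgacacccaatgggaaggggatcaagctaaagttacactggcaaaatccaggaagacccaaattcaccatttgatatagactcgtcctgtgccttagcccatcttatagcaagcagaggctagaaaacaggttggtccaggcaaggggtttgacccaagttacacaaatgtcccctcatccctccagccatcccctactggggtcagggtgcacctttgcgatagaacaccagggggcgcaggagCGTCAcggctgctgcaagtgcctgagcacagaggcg
In the Prkar1a window TGACGTCA begins at position -49, in that of Prkacb CGTCA begins at -102, in that of Pde4b at -34 and in that of Pde2a at 15. No match was found in the windows of Prkar2b, Akap7, Akap13, Pde7b and Pde11a, and Pde3a had no window in the table. A match describes letters only, and the arrays do not show which start site was used.

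The anchoring proteins tie PKA to particular places in the cell and numbered 15. Their median log2FC was -0.01, with 6 positive and 9 negative, 1 gene higher with N and 1 higher with K at an unadjusted P under 0.05 (6.67% each, beside 4.64% and 3.89% of all genes), and 3 genes with groups that did not overlap (20%, beside 13.3% of all genes). Akap7, which encodes membrane-bound and soluble anchors known to hold PKA near ion channels, had values of 7.73, 7.92 and 7.60 with N and 7.21, 7.38 and 6.96 with K. The groups were separated by 0.22, and the log2FC was 0.57 (standard error 0.15, adjusted p = 0.294 from limma), a 1.48-fold higher mean with N. Left-out arrays gave 0.45 to 0.66.

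Akap13, which encodes an anchor that is also an exchange factor for the GTPase RhoA, had values of 7.65, 7.68 and 7.79 with N and 8.08, 8.27 and 8.13 with K. Every K array lay above every N array, and the log2FC was -0.45 (standard error 0.12, adjusted p = 0.292 from limma), which stayed between -0.50 and -0.40 with any 1 array left out. Akap5, the postsynaptic anchor that binds PKA, calcineurin and protein kinase C, had values of 7.87, 7.73 and 7.94 with N and 7.50, 7.76 and 7.28 with K. K replicate 2 lay just above N replicate 2, and its log2FC was 0.33 (standard error 0.15, unadjusted P = 0.0531).

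The nuclear anchor Akap8 had a log2FC of -0.25 (standard error 0.15) and was the brightest anchor, with 9.37, 9.69 and 9.74 with N and 9.66, 9.95 and 9.94 with K. N replicates 2 and 3 lay above K replicate 1. Its paralog Akap8l had 0.23 (standard error 0.14), with N above K on all arrays, the closest values being 7.37 on N replicate 3 and 7.35 on K replicate 3. The mitochondrial anchor Akap1, with 0.15, spread most among the K arrays (SD 0.46), where K replicate 3 was at 7.46 and the others at 6.66. Akap12, a large scaffold at the plasma membrane, had -0.01 (standard error 0.11), and the centrosomal anchor Akap9 -0.01 (standard error 0.14). Akap6, the anchor of the nuclear envelope, had -0.04, Akap10 -0.16 and Akap17b 0.06. The anchors known from sperm or cilia, Akap3, Akap4 and Akap14, were dim, with log2FC of 0.02, -0.24 and -0.17. Akap11 was covered by 3 clusters. The brightest, used here, had -0.07, and the others had 0.64 and -0.05. The cluster with 0.64 had 9.19, 9.29 and 10.23 with N and 8.24, 9.63 and 8.90 with K, which overlap.

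**Figure D3:**
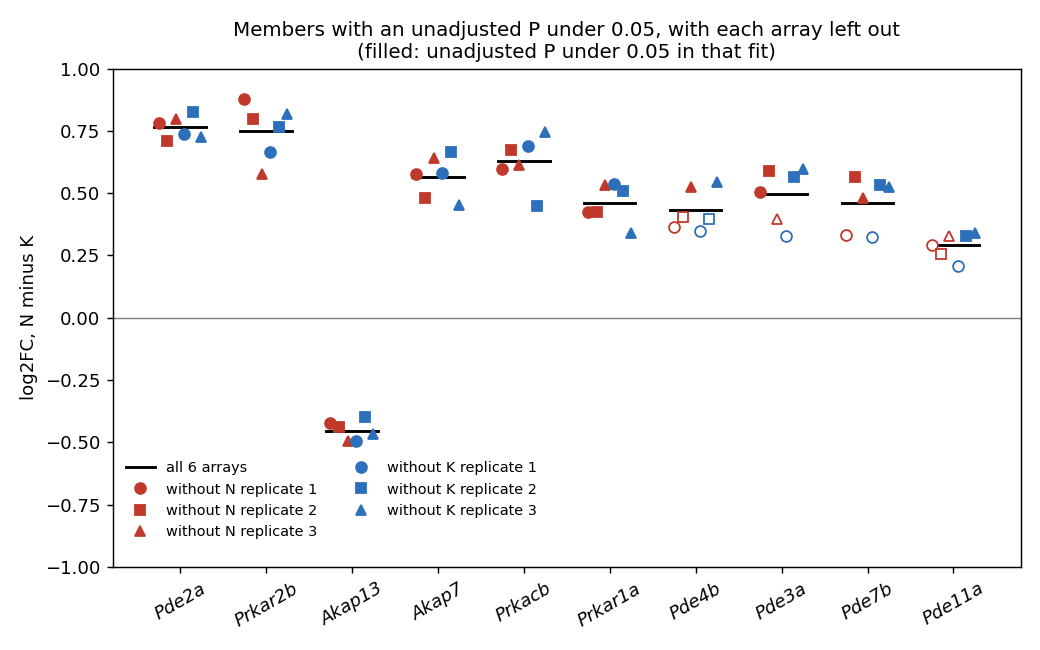
The vertical axis gives the log2FC (N minus K) of the 10 genes with an unadjusted P under 0.05, with all 6 arrays (black line) and with each array left out (points, red for an N array and blue for a K array, filled where the unadjusted P was under 0.05). No point crosses 0, and leaving out K replicate 1 (blue circles) leaves Pde4b, Pde3a, Pde7b and Pde11a unfilled.

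The rest of the pathway was taken from 5 lists. Of 18 receptors that couple to G proteins, 8 were measured and analysed here, with a median log2FC of 0.04 and 0 of 8 at an unadjusted P under 0.05 (limma, 0 adjusted). Of the 8 G protein alpha subunits measured, 1 reached an unadjusted P under 0.05 (beside 8.54% of all genes). This was Gnao1, the abundant alpha subunit of brain, with a log2FC of 0.65 (standard error 0.16, adjusted p = 0.268 from limma). Its values were 9.31, 8.87 and 9.46 with N and 8.50, 8.54 and 8.64 with K. Gnal, the stimulatory subunit of olfactory and striatal neurons, had 1.01 (standard error 0.44), which rested on N replicate 3 at 7.86 beside 6.04 and 6.07 on the other N arrays. The other N arrays of Gnal lay just above the K arrays, the highest of which was at 5.93. The median of the 8 alpha subunits was 0.02, and it was -0.05 over the 9 genes of the list, which also held Ric8b, a chaperone of alpha subunits. Of 10 other cAMP effectors and PKA inhibitors measured, 0 reached an unadjusted P under 0.05 (limma, 0 adjusted) and the median was -0.07. Pkia, a PKA inhibitor gene, had 0.37 (standard error 0.21), with 7.70, 7.70 and 8.06 with N and 7.30, 7.90 and 7.15 with K, which overlap.

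Downstream of PKA, the 13 genes of CREB family members, coactivators and their regulating kinases had a median log2FC of -0.09, with 2 higher with K at an unadjusted P under 0.05 (beside 3.89% of all genes) and 0 higher with N (beside 4.64%). These were the CREB coactivator genes Crtc3 with -0.54 (standard error 0.17, adjusted p = 0.405 from limma) and Crtc2 with -0.50 (standard error 0.20, adjusted p = 0.548 from limma). Crtc3 had values of 7.24, 7.25 and 7.76 with N and 8.12, 7.90 and 7.84 with K, which did not overlap. Crtc2 had 7.51, 7.04 and 7.60 with N and 7.66, 7.74 and 8.24 with K, where the closest arrays were N replicate 3 and K replicate 1. Creb1 had -0.15 (standard error 0.14) and Crem, which encodes activators and repressors of the same element, 0.33 (standard error 0.16, unadjusted P = 0.0700). Of 17 CREB target genes measured, 12 lay above 0 in log2FC (beside 43% of all genes), with a median of 0.04. Scg2, a secretory granule gene, had 7.29, 7.19 and 7.08 with N and 6.34, 5.51 and 5.77 with K, a log2FC of 1.31 (standard error 0.20, adjusted p = 0.0703 from limma), and Ppargc1a, a coactivator of mitochondrial genes, had 10.41, 10.29 and 10.53 with N and 10.63, 10.87 and 10.64 with K, a log2FC of -0.31 (standard error 0.13, unadjusted P = 0.0439). The immediate early genes Fos, Nr4a1 and Per1 had 0.33, -0.01 and 0.01.

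Markers of cell types moved between the groups alongside these genes. Of 17 astrocyte markers 8 reached an unadjusted P under 0.05, all higher with N (beside 4.64% of all genes), and 9 had groups that did not overlap (beside 13.3%). Gfap was higher with N, with a log2FC of 1.66 (adjusted p = 0.0358 from limma), and Aqp4 had 1.56 (adjusted p = 0.0738), each larger than that of any of the 56 genes. In this list 14 markers had a positive log2FC and 3 a negative one, S100b (-0.47), Agt (-0.15) and Acsbg1 (-0.05). The log2 of the summed level of all 17 astrocyte markers ran from 14.38 to 14.47 with N and from 13.97 to 14.10 with K. Sparcl1, the brightest of the 17, carries a large part of that sum, with means of 13.02 with N and 12.45 with K. Of 12 neuron markers 3 were higher with N (beside 4.64% of all genes) and 1 with K (beside 3.89%) at an unadjusted P under 0.05. The summed level of the neuron markers was lower with N (11.40 to 11.45, beside 11.58 to 11.64). That direction rested on Map2, the brightest of them (log2FC -0.32). Without Map2 the sum ran from 9.80 to 9.89 with N and from 9.50 to 9.85 with K, so the groups overlapped. In all, 7 of 12 had higher means with N, with the largest log2FC for Snap25 (0.81), Nefl (0.64, with overlapping groups) and Tubb3 (0.47). The other 5 had lower means with N, Stmn2 at -0.24, Syt1 at -0.21, Rbfox3 at -0.10 and Dcx at -0.07 among them. Of the 12, 8 lay below the median intensity, Nefl and Tubb3 among them. The precursor markers Sox2 (10.16 ± 0.26 with N and 9.90 ± 0.27 with K, SD) and Nes (8.24 ± 0.20 and 8.76 ± 0.23) were bright on all arrays. Of 10 precursor markers measured 2 were higher with N (beside 4.64% of all genes) and 1, Nes, with K (beside 3.89%) at an unadjusted P under 0.05. The oligodendrocyte lineage list (0 of 11 at an unadjusted P under 0.05, 0 adjusted, limma) had a summed level of 11.26 to 11.41 with N and 11.45 to 11.50 with K. Its brightest genes, Olig1 and Olig2, had log2FC of -0.25 and -0.20, while 5 of the 11 had a positive log2FC and 6 a negative one. The lists of microglia (0 of 10), endothelium (0 of 8), photoreceptor and pineal cells (0 of 6) and muscle (0 of 9) held no gene at an unadjusted P under 0.05 or adjusted. That of pericytes and fibroblasts held 1 of 9 at an unadjusted P under 0.05, higher with N (beside 4.64% of all genes). No marker is at 0 on an array, where dim clusters keep a background value. The part of these markers in the differences of the PKA, phosphodiesterase and anchor genes was not tested.

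**Figure D4:**
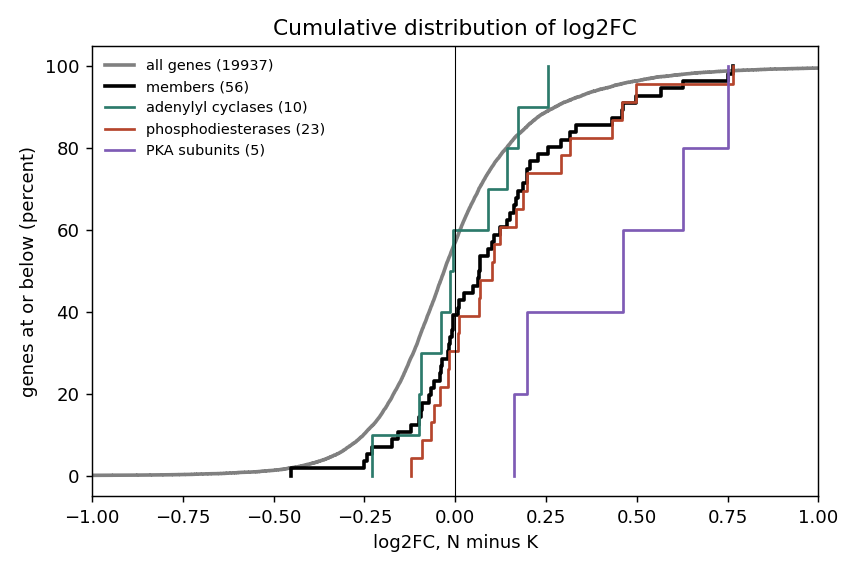
Percent of genes (vertical axis) at or below each log2FC, N minus K, on the horizontal axis, for all genes, all 56 genes of the pathway, the cyclases, the phosphodiesterases and the PKA subunits, from 3 arrays per group. The 5 PKA subunits lie between 0.16 and 0.75, to the right of the curve of all genes (median -0.03), while the cyclases (median -0.01) stay near it.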

How the data were processed

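The authors hybridised labelled cDNA to Affymetrix GeneChip Mouse Gene arrays, 1 per culture, and the deposited values are log2 RMA values per transcript cluster, background-corrected and normalized between arrays in Partek Genomics Suite, with versions and settings not given in the sources used here. They lie between 1.57 and 14.1 and were used as they stand. Clusters with 1 gene symbol in the array annotation (21640 of 34760) were reduced to 19937 genes by the highest mean. All 56 member IDs were found in RefSeq GRCm38.p6.

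Differences (N minus K) were tested per gene by limma 3.58.1 under R 4.3.3 (4 residual and 4.59 prior degrees of freedom), checked on simulated data. An exact permutation test of 3 against 3 arrays cannot give a p under 0.1. The members and the lists of pathway genes and cell type markers were chosen with earlier results of these data known. Full values are given, per subfamily, for genes at an unadjusted P under 0.05, the ends and the brightest cluster, for all PKA subunits, and for pathway list genes at that P. Marker lists are given by counts and summed levels. Other members are named to account for all of them, and Gnal, Ric8b, Fos, Nr4a1, Per1 and the markers were named after their values were seen, as were the values without Ric8b and Map2 chosen. Some genes of the lists are not analysed here. Alternatives covered model terms, moderation, an intensity filter, normalization, the choice of cluster, thresholds and arrays left out. Replicate numbers are shared between groups but are not known to pair the arrays.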

Additional observations from a re-analysis of the deposited data

How the results depend on the processing

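No member passed at an adjusted p under 0.05 in any of the 15 alternative fits (lowest adjusted p 0.0664 from limma), and the 10 members at an unadjusted P under 0.05 kept their sign in each fit that measured them, with 6 of them (Pde2a, Prkar2b, Prkacb, Prkar1a, Akap7 and Akap13) under 0.05 in all. Members higher with N numbered 4 at an unadjusted P under 0.01, and with a log2FC over 1 in size 0 were higher with N and 0 with K. At an unadjusted P under 0.05 those higher with N numbered 11 with quantile and 12 with cyclic loess normalization. With each array left out in turn 5 to 10 members were higher with N at an unadjusted P under 0.05. In these fits 14 to 16 members had N wholly above K and 1 to 6 had K wholly above N (fewer arrays separate more easily). The median log2FC ran from 0.0433 to 0.107 over the members, -0.0276 to 0.0405 over the cyclases and -0.126 to 0.0574 over the anchors. It ran from -0.00683 to 0.0913 over the cAMP-specific and -0.0390 to 0.0673 over the cGMP-specific phosphodiesterases, and 0.242 to 0.394 over the PKA regulatory genes. Among clusters above the median intensity the member median was 0.125 and that of the cAMP-specific phosphodiesterases 0.198. After median centring of the arrays 3 members had K above N. For all genes, the alternatives were not counted by direction, by overlap or at a P under 0.01. The other member counts of this paragraph thus have no such share beside them. Over all genes the count at an adjusted p under 0.05 was 1 in an ordinary linear model, 12 with quantile and 12 with cyclic loess normalization, 3 after median centring, and 0 to 21 with an array left out (0 without K replicate 1 and without either of N replicates 1 and 2). The causes were not tested.

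With the replicate number as a block (replicate block), 8 members were higher with N at an unadjusted P under 0.05 in place of 9, and 41 of all genes passed when adjusted, Scg2 among them. Same-numbered arrays deviated together with r of 0.04, 0.04 and 0.12 across genes, so the numbers were not taken to pair them. The number of arrays limits the precision of every value.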
